A study of Homo sapiens with 6 samples.

Results

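The Sprouty genes SPRY1, SPRY2, SPRY3 and SPRY4 and the Sprouty-related EVH1 domain genes SPRED1, SPRED2 and SPRED3 encode feedback inhibitors of growth factor signalling. They were taken from the deposited array table as every probe set annotated with 1 of these 7 symbols. Each symbol had 1 probe set, so all 7 of the 24241 genes with a symbol that were tested are described here. The rule that selects them is by gene name and has no threshold on a measured value, although earlier results of these data were known when the family was chosen. The RNA came from HepG2 cells, an established human hepatocellular carcinoma line, grown in RPMI medium and kept for 24 hours with the solvent DMSO (3 arrays) or with verteporfin at 0.75 µM (3 arrays). Verteporfin is a porphyrin photosensitiser that is also used as a disruptor of the binding of YAP to TEAD factors, and the labels give no light exposure. All 6 samples are of the same cell line, 1 dose and 1 time, and nothing in the labels names separate cultures, so a p-value here reflects only how far these samples differ, possibly for technical reasons.

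As background, growth factor receptors with tyrosine kinase activity switch on RAS, which activates the kinases RAF, MEK and ERK in turn. ERK activity raises the transcription of several Sprouty and SPRED genes, and their proteins then dampen the same cascade. Sprouty proteins carry a cysteine-rich C-terminal domain and a conserved tyrosine, and they bind adaptors such as GRB2 and the ubiquitin ligase CBL. SPRED proteins bring neurofibromin, the RAS-inactivating product of NF1, to the plasma membrane, and loss of SPRED1 causes Legius syndrome in people. Lower levels of SPRY2 and of SPRED1 and SPRED2 have been described in liver cancer.

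With verteporfin, 3 of the 7 genes were higher, 1 was lower and 3 did not pass the test. SPRY4 rose 3.80-fold and SPRY1 fell 2.44-fold, so the 2 largest changes of the family ran in opposite directions. SPRED2 rose 1.31-fold and SPRED1 1.21-fold, the latter with a call that most alternatives did not keep. SPRY2 was measured above the median signal with overlapping groups, and SPRY3 and SPRED3 lay below the median signal on every array. The test was limma on the log2 values over all 24241 genes, with p-values adjusted by Benjamini-Hochberg and a threshold of 0.05, and SE below denotes its moderated standard error.

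The share of all genes called was 28.5%, with 14.3% higher and 14.3% lower. Among genes with a mean at or above the median signal of 4.83 it was 51.9%, and among those below it 4.59%. Of the Sprouty and SPRED genes, 5 had a mean above the median signal and 4 of these were called, a count over 5 genes to be read against that 51.9%. A change that passed the test and was at least 2-fold was seen for 2 members (SPRY4 and SPRY1) and for 5.73% of all genes. The median log2 change of the 7 genes was 0.10, against 0.0049 over all genes. Once sorted, the values of each array matched those of every other array exactly, so each change is relative to the distribution of its array. When the arrays were instead centred on widely expressed reference genes, the log2 difference of every gene rose by the same amount, the median of all genes moved to 0.17, and the calls split into 6961 higher and 2289 lower, against 3460 and 3456 in the main test. Of the 9 measured reference genes, 1 was itself called higher and 3 lower in the main test, with log2 changes from -0.84 to 0.52. Calls that appear only with this centring therefore rest on references that were not stable. Across genes, the correlation was 0.995 to 0.997 within a group and 0.969 to 0.977 between the groups. Hepatocyte markers were measured well above the median signal on every array. The mean over 7 markers was 12.12 to 12.15 with DMSO and 10.49 to 10.74 with verteporfin, and 6 of the 7 were called lower. The remaining marker, SERPINA1, was also lower (-0.24) but did not pass (limma, adjusted p = 0.0741). Of 8 markers of fibroblasts, blood and endothelium, 7 lay below the median signal and 0 were called by limma (0 at an unadjusted p under 0.05). The part of the hepatocyte marker change in the changes of the Sprouty and SPRED genes was not tested. In RNA from whole cultures, fewer cells with a transcript and less of it per cell cannot be told apart.

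**Figure D1:**
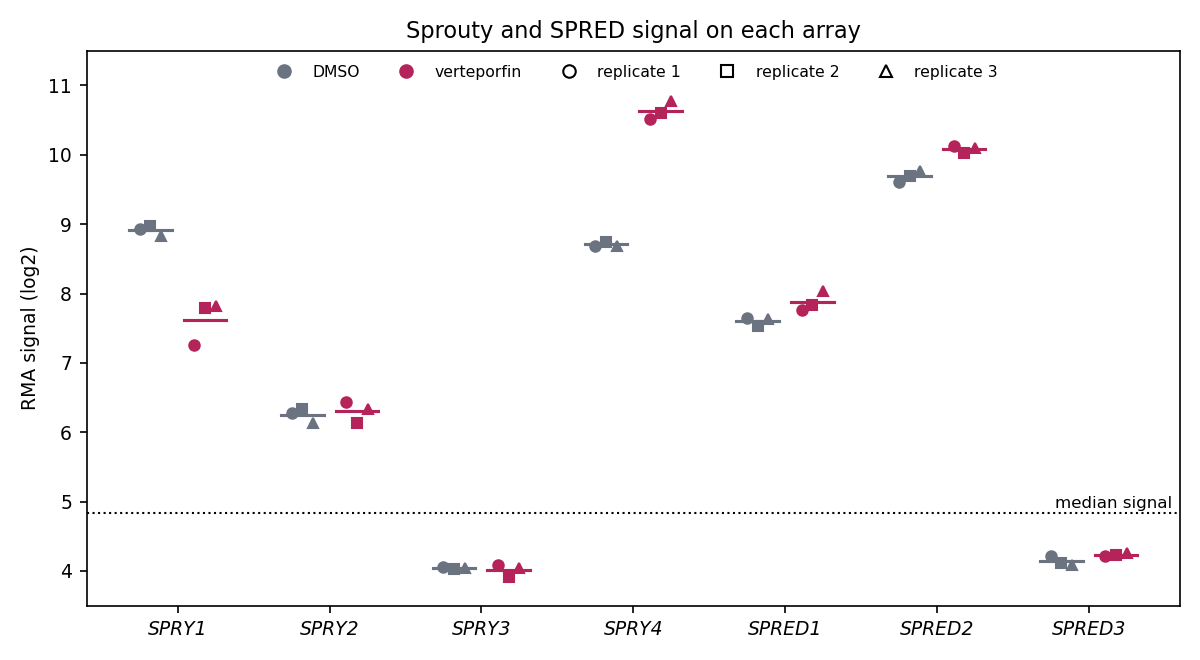
RMA signal (log2, vertical axis) of the 7 genes on each of the 6 arrays, with DMSO in grey and verteporfin in red, a symbol for each replicate number, bars at the group means and the median signal of 4.83 as a dotted line. The groups are far apart for SPRY4 and SPRY1, closer for SPRED2 and SPRED1, and both groups of SPRY3 and SPRED3 lie below the dotted line.

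The promoter windows of the 3 genes whose calls held under every alternative (SPRY4, SPRY1 and SPRED2) are shown because these genes moved in different directions on the same arrays. Each window runs 5′ to 3′ from 250 bases before to 50 bases after an annotated transcription start, from RefSeq on GRCh38.p14. SPRY1 and SPRED2 each have 2 annotated starts in that table, and which start HepG2 cells use was not measured. Capitals mark a match to any motif searched.
SPRY4, chr5:142324198-142324497, minus strand: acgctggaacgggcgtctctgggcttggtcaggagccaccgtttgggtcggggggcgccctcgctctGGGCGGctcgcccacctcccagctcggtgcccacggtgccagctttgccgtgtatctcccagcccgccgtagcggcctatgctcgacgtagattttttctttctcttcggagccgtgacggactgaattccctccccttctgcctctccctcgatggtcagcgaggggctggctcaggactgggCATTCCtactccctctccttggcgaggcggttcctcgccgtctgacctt
SPRY1 start 1, chr4:123396545-123396844, plus strand: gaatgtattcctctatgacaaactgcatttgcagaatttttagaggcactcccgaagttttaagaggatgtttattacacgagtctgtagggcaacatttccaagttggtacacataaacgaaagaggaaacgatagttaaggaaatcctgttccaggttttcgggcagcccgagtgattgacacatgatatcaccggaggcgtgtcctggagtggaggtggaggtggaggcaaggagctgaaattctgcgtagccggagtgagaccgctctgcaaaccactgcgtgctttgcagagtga
SPRY1 start 2, chr4:123398136-123398435, plus strand: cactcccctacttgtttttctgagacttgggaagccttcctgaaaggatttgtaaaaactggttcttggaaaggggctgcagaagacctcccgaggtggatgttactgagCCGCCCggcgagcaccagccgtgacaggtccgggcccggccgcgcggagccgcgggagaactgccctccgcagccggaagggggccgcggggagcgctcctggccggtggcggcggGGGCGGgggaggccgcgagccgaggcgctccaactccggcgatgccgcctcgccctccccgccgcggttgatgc
SPRED2 start 1, chr2:65432550-65432849, minus strand: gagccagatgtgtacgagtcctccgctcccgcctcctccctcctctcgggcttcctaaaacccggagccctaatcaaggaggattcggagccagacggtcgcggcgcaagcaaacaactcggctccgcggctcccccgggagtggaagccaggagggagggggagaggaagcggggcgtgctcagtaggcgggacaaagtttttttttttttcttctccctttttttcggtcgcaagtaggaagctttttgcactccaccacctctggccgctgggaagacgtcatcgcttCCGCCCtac
SPRED2 start 2, chr2:65366729-65367028, minus strand: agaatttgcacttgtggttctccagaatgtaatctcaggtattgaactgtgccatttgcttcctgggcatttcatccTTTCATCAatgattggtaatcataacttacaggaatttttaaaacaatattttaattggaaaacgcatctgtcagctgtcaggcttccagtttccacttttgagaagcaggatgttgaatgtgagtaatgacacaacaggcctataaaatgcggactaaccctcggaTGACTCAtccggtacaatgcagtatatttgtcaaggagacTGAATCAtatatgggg

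Motifs were searched on both strands, and the matches in the printed windows do not overlap each other. The searched letters were TGANTCA for AP-1, TGACGTCA for the cAMP response element, TGAATGAA or TGAATGGA for the repressor CIC, CCGGAAGT for ETS factors, GGGCGG for SP1, GGAATG for TEAD factors and TGATGNAA for the amino acid response element, and the CArG box of SRF was searched as well. The SPRY4 window, whose gene rose, held 1 SP1 match and 1 TEAD match that begins 1 base after the start, read on the opposite strand. A TEAD match was present in 4928 and an SP1 match in 15786 of the 35116 windows of the table. For SPRY1, whose transcript fell, the upstream start (start 1) had no match to any motif, and start 2 had 2 SP1 matches. The GC content of its windows was 47.7% and 69.3%, against 65.0% for SPRY4 and a median of 58.7% over all windows.

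For SPRED2, start 1 had 1 SP1 match. Start 2 had 2 AP-1 matches, a motif held by 7.71% of all windows, and 1 amino acid response element, held by 3.62%. Across all 13 windows of the 7 genes, the CRE, ETS and CArG motifs had no match (they occur in 1.85%, 4.14% and 1.29% of all windows), and the CIC motif (2.63%) occurred once, in SPRED3. SPRED3, which did not pass the test, also had 1 AP-1 match in that window. These matches describe the letters of the windows and are not sites shown to be bound in these cells.

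SPRY4 (chromosome 5) encodes a Sprouty protein that growth factors induce and that restrains ERK activation, and it had the largest change of the 7 genes. Its log2 signal was 8.69, 8.75 and 8.69 in DMSO replicates 1 to 3 and 10.52, 10.61 and 10.78 in verteporfin replicates 1 to 3. All verteporfin samples lay far above all DMSO samples, and the DMSO samples were nearly equal. The means were 8.71 ± 0.035 (SD, n = 3) and 10.63 ± 0.13 (SD, n = 3), a log2 difference of 1.92 ± 0.079 (SE) with a 95% interval of 1.74 to 2.11 (limma, adjusted p = 3.18e-06). Its absolute change was larger than that of 98.8% of all genes tested. Over the 15 alternatives the difference ranged from 1.84 to 2.09, and the highest adjusted p was 0.000571.

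SPRY4-AS1, a non-coding gene whose annotated start lies beside that of SPRY4 on the opposite strand, was looked at after the value of SPRY4 was seen. Its log2 signal was 4.76, 4.97 and 4.77 with DMSO and 5.38, 5.73 and 5.70 with verteporfin. The groups did not overlap, and the log2 difference was 0.77 ± 0.11 (SE; limma, adjusted p = 0.0011). Its DMSO samples lay at the median signal, so this is a difference of measured signal and not the size of a change in transcript. SPRY4 and SPRY4-AS1 were read by separate probe sets. The strand of the probes is not given in the sources used here, and overlap of the transcripts was not checked. Whether either probe set also picks up signal of the other gene was therefore not determined.

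SPRY1 (chromosome 4) encodes a Sprouty protein known for restraining RET and FGF receptor signalling in the developing kidney of the mouse. Its log2 signal was 8.93, 8.98 and 8.83 with DMSO and 7.26, 7.79 and 7.83 with verteporfin. The groups were well apart, and verteporfin replicate 1 was the lowest sample. The means were 8.91 ± 0.075 (SD, n = 3) and 7.62 ± 0.31 (SD, n = 3), and the gene fell by 1.29 on the log2 scale (SE 0.15, 95% interval -1.63 to -0.95; limma, adjusted p = 0.000337). Its absolute change was larger than that of 96.6% of all genes. Without verteporfin replicate 1 the difference was -1.11 (adjusted p = 9.34e-05), and over all 15 alternatives it ranged from -1.43 to -1.10. The mean of the hepatocyte markers was also lowest in verteporfin replicate 1 (10.49, against 10.74 and 10.67 in replicates 2 and 3), and its part in the SPRY1 value was not tested.

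SPRY2 (chromosome 13), the best studied member, binds CBL through its conserved tyrosine when growth factors are present. The SPRY2 log2 signal was 6.27, 6.33 and 6.14 with DMSO and 6.44, 6.14 and 6.33 with verteporfin. The groups overlapped, with the lowest samples of both at about the same value. The log2 difference was 0.055 ± 0.094 (SE), with a 95% interval of -0.16 to 0.27 (limma, adjusted p = 0.769). A fall or rise as large as that of SPRY1 or SPRY4 lies outside this interval, while smaller changes within it could not be resolved with 3 arrays per group.

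SPRY3 is the least studied Sprouty gene and lies at the end of the long arm of the X chromosome. On the log2 scale it read 4.06, 4.03 and 4.04 with DMSO and 4.09, 3.92 and 4.04 with verteporfin. All 6 samples were below the median signal and the groups overlapped. The log2 difference was -0.027 ± 0.067 (SE; limma, adjusted p = 0.851), and with the arrays centred on reference genes it was 0.14 (adjusted p = 0.202). Whether a signal this low stands above background was not measured, so the value says little about the transcript.

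SPRED2 (chromosome 2), a widely expressed SPRED gene, rose by a small amount. Its log2 signal was 9.61, 9.70 and 9.77 with DMSO and 10.13, 10.02 and 10.09 with verteporfin. The lowest verteporfin sample lay above the highest DMSO sample. The means were 9.69 ± 0.080 (SD, n = 3) and 10.08 ± 0.057 (SD, n = 3), a difference of 0.39 ± 0.069 (SE, 95% interval 0.23 to 0.55; limma, adjusted p = 0.00341). The call held in all 15 alternatives, with a highest adjusted p of 0.0477 without replicate 1 of both groups.

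SPRED1 (chromosome 15), the gene of Legius syndrome, was slightly higher with verteporfin. On the log2 scale it read 7.64, 7.54 and 7.64 with DMSO and 7.77, 7.84 and 8.03 with verteporfin. The groups did not overlap, but the gap between them was smaller than the range of the verteporfin samples. The log2 difference was 0.27 ± 0.083 (SE, 95% interval 0.078 to 0.47; limma, adjusted p = 0.0443). The call was lost in 9 of 15 alternatives. Leaving out single samples, the adjusted p was 0.0893, 0.132 and 0.0878 without DMSO replicates 1, 2 and 3, 0.0701 and 0.118 without verteporfin replicates 2 and 3, and 0.0314 without verteporfin replicate 1.

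SPRED3 (chromosome 19), which lacks a functional KIT-binding domain and is known mainly from brain, lay below the median signal on every array. The SPRED3 log2 signal was 4.21, 4.11 and 4.09 with DMSO and 4.22, 4.23 and 4.25 with verteporfin. The groups did not overlap, although the highest DMSO and the lowest verteporfin sample were almost equal, and the log2 difference of 0.097 ± 0.062 (SE) did not pass (limma, adjusted p = 0.341). With the arrays centred on reference genes the difference was 0.26 (adjusted p = 0.0315), of which most was the shift that this centring gave to every gene. In all, 5 of the 7 genes had groups that did not overlap, against 39.1% of all genes.

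**Figure D2:**
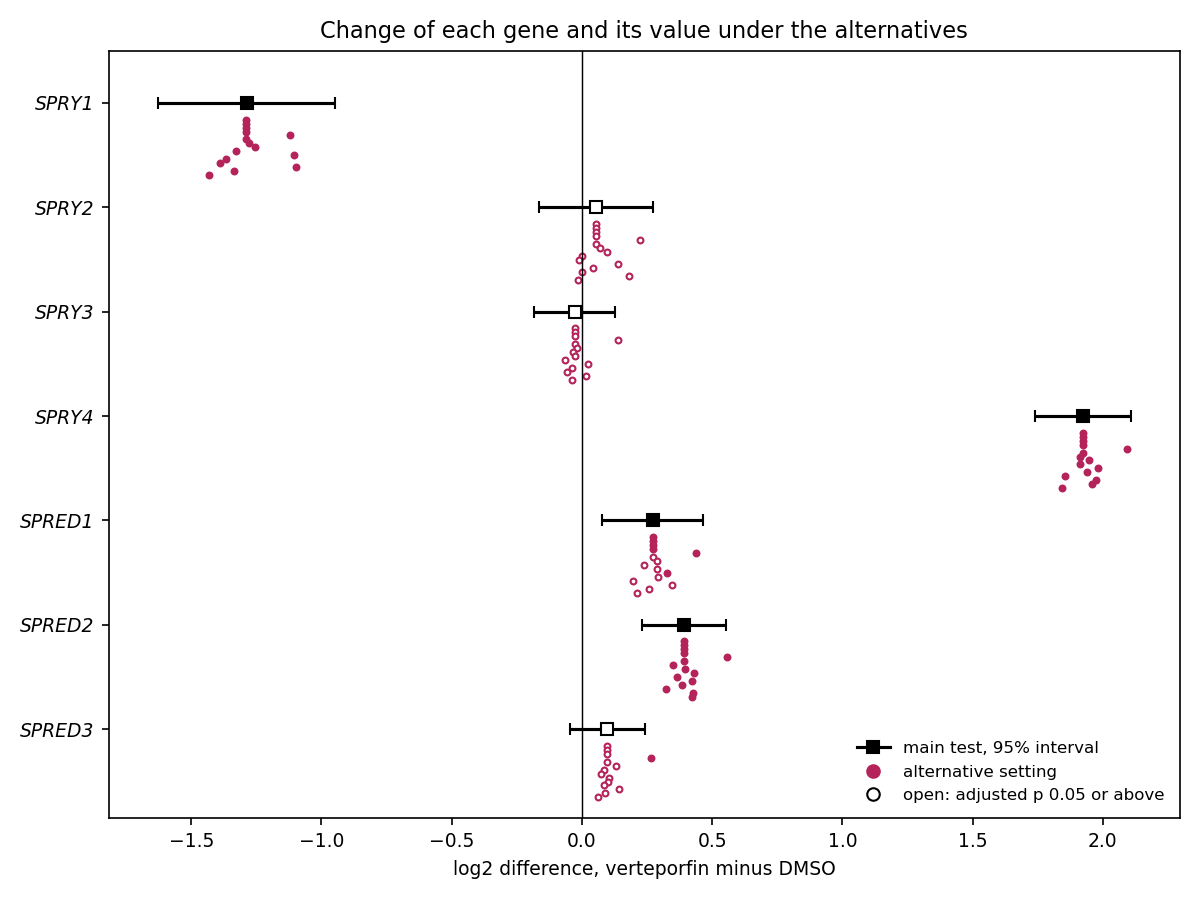
Log2 difference of verteporfin minus DMSO (horizontal axis) for each gene, with the main test as a square with its 95% interval and each alternative as a point below it, filled where the adjusted p was under 0.05. SPRY4 near 1.92, SPRY1 near -1.29 and SPRED2 near 0.39 are filled throughout, SPRED1 near 0.27 is open in 9 of 15 alternatives, and SPRY2, SPRY3 and SPRED3 lie near 0, with the centring on reference genes as the rightmost point of each.

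Within the family, the changes were set against each other as the difference between 2 genes on the same array. SPRY4 and SPRY1 were farthest apart, their log2 changes differing by -3.21 in the order SPRY1 minus SPRY4. SPRY4 and SPRED2, which both rose, differed by 1.53 in favour of SPRY4. SPRED1 and SPRED2 differed by -0.12. These differences between genes are given as a description and were not tested. The median log2 change was 0.27 for the 3 SPRED genes and 0.014 for the 4 Sprouty genes, whose own changes ran from -1.29 to 1.92. The SPRED median is the value of SPRED1, whose call was lost in 9 of 15 alternatives.

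The genes with the closest profile were found for each called member, as the smallest root mean square difference over the 6 arrays after each gene was centred on its DMSO mean, among 12256 other genes at or above the median signal. Closest to SPRY4 were TSPAN13, a tetraspanin (0.062 log2 units, change 2.01), CTSL, the lysosomal protease cathepsin L (0.085, change 1.83), and LRP10, an LDL receptor family member (0.093, change 1.87). Closest to SPRY1 were ABCD3, a peroxisomal transporter (0.055, change -1.24), the ribonuclease RNASET2 (0.057, change -1.28) and MLXIPL, the glucose-sensing transcription factor ChREBP (0.061, change -1.36). These 3 genes had their lowest sample in verteporfin replicate 1, which follows largely from choosing them for closeness to SPRY1 on these arrays. Closest to SPRED2 were LAT (0.021), AGFG1 (0.023) and KMT2C (0.026), and closest to SPRED1 were COL7A1 (0.025), TMEM18 (0.040) and TMED10 (0.040). The Pearson correlation of the member with each of these genes was lowest for TMEM18 with SPRED1 (0.9749) and highest for TSPAN13 with SPRY4 (0.9999) over the 6 arrays, a description only, since all of them share the step between the groups.

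**Figure D3:**
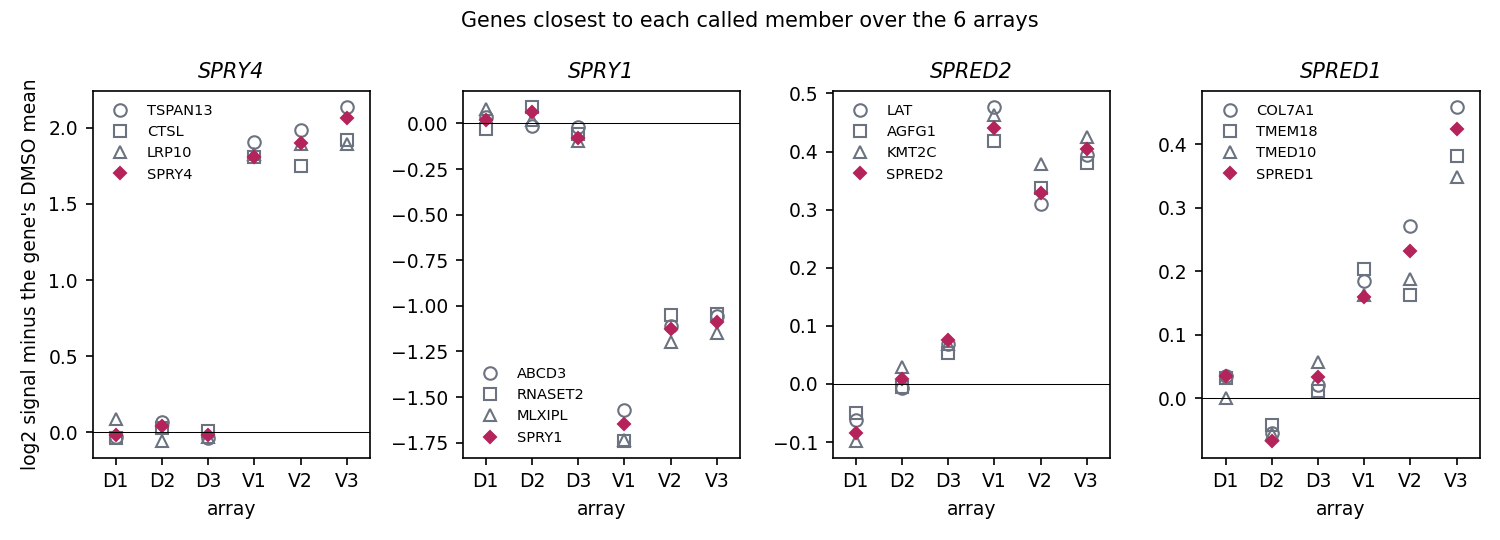
Log2 signal minus the DMSO mean of each gene (vertical axis) on the 6 arrays, D1 to D3 for DMSO and V1 to V3 for verteporfin replicates, for each called member (filled diamond) and its 3 closest genes (open symbols). The open symbols lie within about 0.1 log2 units of the diamonds on average, and the SPRY1 panel shows the low verteporfin replicate 1.

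The genome neighbours of the members were looked at after the values of the members were seen, as the 2 nearest measured protein-coding genes on each side. On chromosome 5, NDFIP1 lay on one side of SPRY4 with a change of 0.26 (adjusted p = 0.136), and FGF1, a ligand of the FGF receptors, on the other with -0.077 (adjusted p = 0.558). Of the 4 neighbours of SPRY4, 1 was called, ARHGAP26, which fell by 1.29 while SPRY4 rose. On chromosome 4, 1 of the 4 neighbours of SPRY1 was called, AFG2A (-0.62, adjusted p = 0.00298), and ANKRD50 on the other side was at 0.13 (adjusted p = 0.470). On chromosome 2, the neighbour RAB1A of SPRED2 rose by 0.37 (adjusted p = 0.00216), while CEP68, the next gene on that side, fell by 0.46 (adjusted p = 0.0282), a call lost in 8 of 15 alternatives. MEIS1 on the other side was at -0.18 (adjusted p = 0.362). The counts of 1, 1 and 2 called neighbours out of 4 for SPRY4, SPRY1 and SPRED2 stand beside 28.5% of all genes. Among the neighbours of the other members, 1 of 4 was called for SPRY2. For SPRY3, SPRED1 and SPRED3 it was 2 of 4 each.

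The other genes of the pathway were taken from lists. Of 19 measured receptor tyrosine kinases, 2 were higher and 7 lower, with a median log2 change of -0.10, and 9 of the 19 had a mean above the median signal. The shares to read these and the next counts against are the 28.5% of all genes called, and the 51.9% called among genes above the median signal. ERBB3 (-2.30 ± 0.11 SE) and the main FGF receptor of hepatocytes, FGFR4 (-2.12 ± 0.16), fell most. FGFR1 fell as well (-0.91 ± 0.070), and so did FGFR3 (-1.75 ± 0.16), the last named after its value was seen. EGFR rose by 0.98 ± 0.074 and MET, the receptor of hepatocyte growth factor, by 0.46 ± 0.074.

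Of 14 measured adaptors and kinases from SHC1 to ERK, 6 were higher and 2 lower, with a median of 0.15. All 14 lay above the median signal, where 51.9% of all genes were called, so the count is near the background, and the rest of that list was not analysed here. The adaptor SHC1 (0.98 ± 0.066 SE), the RAF-activating scaffold SHOC2 (0.71 ± 0.065) and MAP2K1, which encodes MEK1 (1.07 ± 0.11), rose, and the docking protein GAB1 fell (-1.48 ± 0.11). The lower count was 1 in place of 2 without replicate 1, or without replicate 3, of both groups.

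Of 19 measured binding partners and RAS GTPase activators, 5 were higher and 5 lower, with a median of 0.076. All of the called partners were among the 15 of the 19 above the median signal, where 51.9% of all genes were called. TESK1, a kinase that binds Sprouty and SPRED proteins, rose by 1.59 ± 0.085 (SE). CBL, the ubiquitin ligase that marks both receptors and SPRY2 for breakdown, rose by 1.45 ± 0.14, and its relative CBLB by 0.91 ± 0.083. PLCG1, the phospholipase that makes the messengers upstream of calcium release, fell (-0.71 ± 0.068). NF1, through which SPRED proteins act on RAS, was at 0.13 ± 0.070 and did not pass (limma, adjusted p = 0.245). Centred on reference genes NF1 passed (0.30, adjusted p = 0.0231), a value that includes the shift this centring gave to every gene. The lower count was 3 in place of 5 without DMSO replicate 2. With the centring on reference genes, which raised every log2 difference, 9 were higher and 2 lower.

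Of 20 genes listed as other feedback inhibitors, 9 were higher and 2 lower, with a median of 0.13. Whether each listed gene, SPSB1 among them, inhibits this pathway was not tested. All of the called ones were among the 17 of the 20 above the median signal, where 51.9% of all genes were called. The MAP kinase phosphatases DUSP1 (3.17 ± 0.14 SE) and DUSP5 (2.99 ± 0.099) rose, as did SPSB1, a ubiquitin ligase adaptor described to bind MET (2.74 ± 0.14), and the RAS GTPase activator RASAL2 (0.93 ± 0.061). The DMSO mean of DUSP5 (4.84) lay at the median signal. DUSP6, the cytoplasmic ERK phosphatase that is often induced together with SPRY4, rose by 0.87 ± 0.11. DUSP9 fell by 1.76 ± 0.13, named after its value was seen.

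Of 22 measured transcripts described as raised by ERK activity, 17 were higher and 2 lower, with a median of 0.86, against 14.3% of all genes higher and 14.3% lower. Of these transcripts, 20 lay above the median signal, where 51.9% of all genes were called in either direction. ERK activity itself was not measured. EREG, an EGF receptor ligand (3.29 ± 0.11 SE), EGR1 (2.86 ± 0.099), ZFP36 (2.53 ± 0.11) and IER3 (1.45 ± 0.065) had the smallest p. The members that fell were CCND1, which encodes cyclin D1 (-1.51 ± 0.16), and ETV4 (-0.46 ± 0.093), while its relative ETV5 rose (0.67 ± 0.093), all named after their values were seen. Of 15 ETS factors, repressors and their partners, 9 were higher and 1 was lower, with a median of 0.29. The lower one was the repressor ERF (-0.71 ± 0.10, named after its value was seen). In this list, 14 of the 15 lay above the median signal (51.9% called). ELK3 (1.17 ± 0.071), the CIC partner ATXN1 (1.26 ± 0.097) and GABPB1 (0.77 ± 0.085) rose, and ETS1 was 1.60 ± 0.090 higher in signal, with DMSO samples that averaged 4.45 and so lay under the array median. CIC itself, a repressor of ERK-responsive genes, was at -0.058 ± 0.085 (adjusted p = 0.722). The ETS list had 2 lower in place of 1 without DMSO replicate 3. All adjusted p-values are limma's over 24241 genes, and the counts describe the lists, whose members were not compared with other genes by a test.

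**Figure D4:**
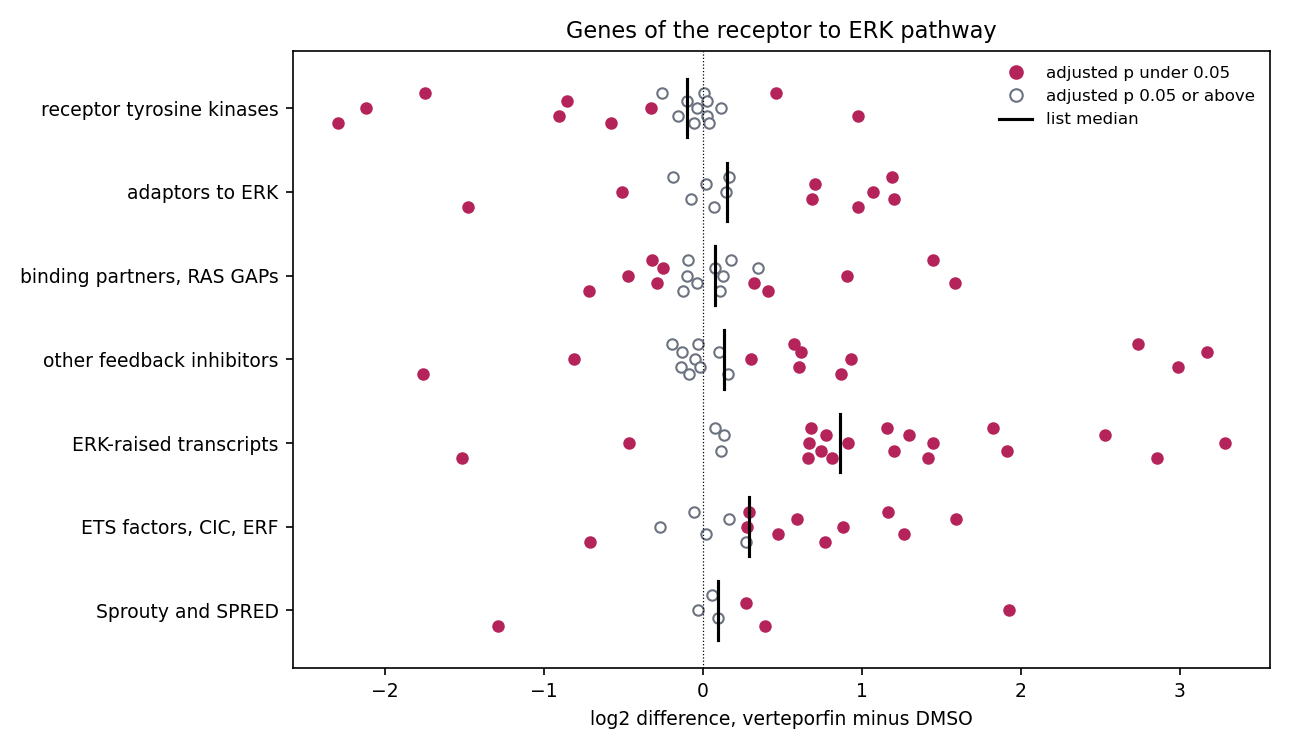
Log2 difference of verteporfin minus DMSO (horizontal axis) for every measured gene of the pathway lists and for the 7 Sprouty and SPRED genes (bottom row), filled where the adjusted p was under 0.05, with a bar at the median of each row. The row of transcripts described as raised by ERK activity (labelled ERK-raised) has a median of 0.86. The receptor row has a median of -0.10 with most filled points below 0, and the Sprouty and SPRED row a median of 0.10 with filled points on both sides.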

How the data were processed

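Total RNA of 6 HepG2 samples was labelled with biotin and hybridised to Affymetrix arrays, 1 sample per array. Per the submitters' processing notes the authors used RMA, which corrects background, gives all arrays one distribution and combines the probes of a set into a log2 value. The array model, the probe set build and the RMA version are not stated in any source used. That the deposited values are log2 follows from their span, 3.17 to 13.8. Signal over background was not measured here, and the number of arrays limits the precision.

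Of 25582 probe sets, 24244 had exactly 1 symbol in the platform annotation, 0 had several and 1338 had none. For 3 symbols with several probe sets the one with the highest mean was kept, which left 24241 genes. The test was limma 3.58.1 (lmFit, eBayes; R 4.3.3) as verteporfin minus DMSO over 6 arrays, two-sided, with Benjamini-Hochberg adjustment and a threshold of 0.05. On simulated data for this comparison with 24241 genes, 98% of changes of -2 were called, 88% of -1, 40% of 0.5 and 4% of 0.25 (50 genes each), with 5 false calls. Only those genes were changed in the simulation, while 28.5% of all genes were called in the data. The adjustment was therefore stricter in the simulation, and its shares are not those of the test on the data. Gene roles are background knowledge. Named are the 7 members and, of each pathway list, the 4 called genes with the smallest p, besides NF1, CBL, TESK1, FGFR4, EGFR, MET, DUSP6 and CIC, and 3 genes closest in profile to each called member. RASA1 was not analysed here. The members, lists and rule were chosen with earlier results of these data known. Alternatives were trend and robust variance, a filter on dim genes, all probe sets, reference genes, the replicate block and arrays left out. Same-numbered samples of the 2 groups did not deviate together (correlations -0.016, -0.11 and -0.012), so the numbers were not taken to pair them.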

Additional observations from a re-analysis of the deposited data

How the results depend on the processing

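The calls of SPRY4, SPRY1 and SPRED2 held with the same direction in all 15 alternatives, and SPRY2 and SPRY3 did not pass in any that could test them. With arrays left out, the log2 differences ran from 1.84 to 1.98 for SPRY4, from -1.43 to -1.10 for SPRY1 and from 0.32 to 0.43 for SPRED2. SPRED1 was not called with the replicate block (0.27, adjusted p = 0.0613) or in 8 of 9 fits with arrays left out (0.20 to 0.34, adjusted p up to 0.186). SPRED3 was called with the arrays centred on reference genes (0.26, adjusted p = 0.0315), where 9250 of all genes were called, against 6916 in the main test. The replicate block changed no other call of a Sprouty or SPRED gene, and 0 of 6 samples correlated best with its own number in the other group. Fits without replicates 1, 2 or 3 of both groups gave 2 or 3 lower binding partners in place of 5, and 2 lower ETS list members in place of 1 without replicate 3, and 3 lower partners without DMSO replicate 2. Of 62 other genes followed through the alternatives, 10 changed their call in at least 1 (NF1, IGF1R, MAPK3, COL7A1, TMEM18, TMED10, LAT, ANKRD50, NDFIP1 and CEP68). Genes below the median signal, SPRY3 and SPRED3 among them, could not be tested with dim genes left out.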
